A study of Arabidopsis thaliana with 14 samples.

Results

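The comparison set Arabidopsis rosettes kept in darkness for 48 h beyond the normal end of the night against rosettes taken at the normal end of the night. It compared 5 of the 14 arrays of the series, chosen by their titles: 2 arrays at 48 h (replicates B and C) and 3 at the end of the night (replicates A, B and C). The fit ran over all 14, so the spread behind each test came from all replicated time points. All 22746 probe sets that are not Affymetrix controls entered the fit, out of 22810 on the array. Both groups fall at the same clock time, so the time of day does not separate them.

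All plants were wild-type Columbia-0 in the vegetative state, 5 to 6 weeks old, and each sample pooled 3 whole rosettes. They were raised first in short days and then under a 14-h photoperiod. The end of the night group had no treatment beyond that light regime, and the 48 h group had the same history followed by 48 h of added darkness. Rosettes were frozen in the dark, RNA was extracted with Trizol, and about 10 micrograms of total RNA were labelled for ATH1 arrays, which measure each transcript with a set of short probes. The remaining 9 arrays were taken 2 h earlier than this group or after 2, 4, 6, 8 or 24 h of extended night. Values are log2 signals after RMA, the authors' normalization, which gives every array nearly the same distribution. Differences are therefore relative to the other transcripts of the same sample, and a drop in total RNA would not appear. In whole rosettes, fewer cells of a type and less RNA per cell cannot be told apart.

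Leaves live through a normal night on the starch stored during the day, and the store is close to exhausted at dawn. When the night goes on, the cell runs short of sugar. The protein kinase SnRK1 is then known to turn down growth and biosynthesis and to turn up the breakdown of amino acids, lipids and cell contents. Part of the amino acid breakdown feeds respiration through the mitochondrial electron transfer flavoprotein route. Chloroplasts hold most of the protein of a leaf, and their recycling is a known source of amino acids in darkness.

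After 48 h of added darkness, 4664 probe sets were higher than at the end of the night, 20.5% of those tested, and 4623 were lower, 20.3%, at an adjusted p under 0.05 in limma with Benjamini-Hochberg adjustment. That is 40.8% in either direction. Of these, 2283 rose and 2490 fell by at least 2-fold, 10.0% and 10.9% of all tested. Changes of at least 4-fold numbered 638 upward and 829 downward, and changes of at least 8-fold 214 and 273. The 48 h arrays lay wholly above the end of the night arrays for 4655 of the probe sets called higher, and wholly below for 4613 of those called lower. Such a gap between the groups in either direction was found for 57.0% of all probe sets, so it is a common pattern on these arrays. Nearly every called probe set had it, so where it is given below it adds little to a call. Counted once per gene, by its brightest probe set, 2571 of 13356 genes with a name were higher, 19.2%, and 2423 were lower, 18.1%. That is 37.4% in all, with a median difference of 0.03 log2. Counts of list members given below are to be read against these shares of 19.2% and 18.1%.

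The arrays at 48 h were less alike than other replicates. Their correlation over probe sets was 0.9754, and 935 probe sets, 4.11%, were at least 2-fold apart, against 90 to 242 between end of the night arrays. Array 48 h B also stood apart in the Affymetrix controls: its 25S ribosomal RNA probe set read 8.98, against 11.05 to 13.78 on the other 13 arrays. On that array the second actin control had a difference of 2.02 log2 between its 3′ and 5′ probe sets, above the 0.90 to 1.71 of the others, a sign used for RNA quality whose part in the results was not tested. The second ubiquitin control was also wider, but the first actin, first ubiquitin and both GAPDH controls lay within the range of the others. Without array 48 h B, 4317 probe sets were called higher and 4278 lower, close to the counts with it. Of the original calls, 912 upward and 718 downward were lost without it, and 771 and 810 without array 48 h C.

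**Figure D1:**
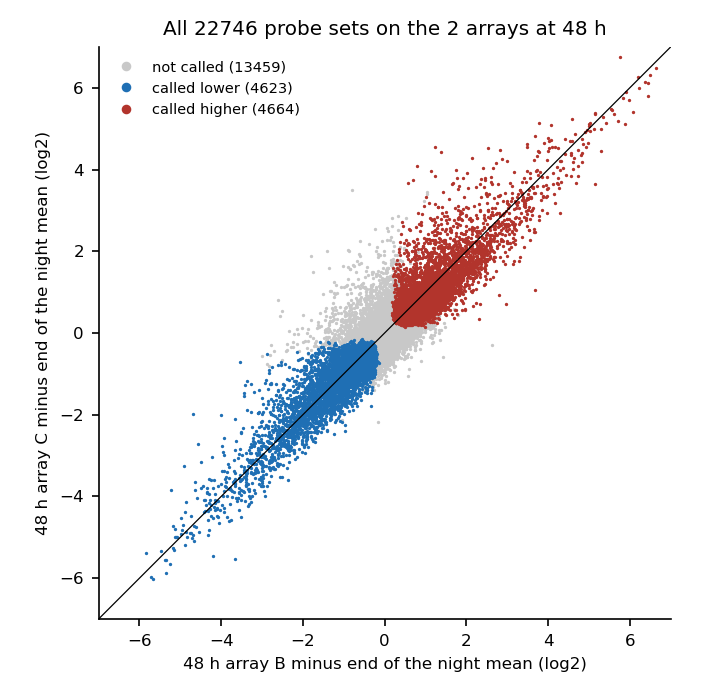
Difference of each 48 h array from the mean of the 3 end of the night arrays, in log2, for array B (horizontal axis) and array C (vertical axis), with 1 point for each of 22746 probe sets and the line of equal differences. The probe sets called higher (4664) and lower (4623) lie along the line, and 935 of all probe sets are at least 2-fold away from it.

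The tissue label could be checked with few markers. Of 9 leaf markers, the table named a probe set for RCA (Rubisco activase) alone, at 13.76, 13.79 and 14.03 at the end of the night. Of 6 root markers 2 were measured: PYK10 read 8.70 to 9.25 at the end of the night with a difference of 0.22 ± 0.45 at 48 h (adjusted p = 0.754 in limma), and EXPA7 differed by -0.16 ± 0.17 (adjusted p = 0.522). None of the 8 seed and 8 flower markers had a named probe set. All errors written after ± are limma standard errors, which pool the spread at all replicated time points. They do not measure the spread at 48 h alone, where the arrays were less alike.

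The 15 largest rises took their transcripts from means of 4.04 to 7.07 at the end of the night to means of 9.32 to 13.09 at 48 h. MGL, methionine gamma-lyase, which breaks down methionine, read 7.18, 7.36 and 6.40 at the end of the night and 13.20 and 12.97 at 48 h. Both 48 h arrays were above every end of the night array, as the choice of these genes required. The rise was 6.11 ± 0.28 log2, or 68.9-fold (adjusted p = 3.41e-07, limma). The gene with the largest difference of all, AT1G19530, carries no name or function in the tables used here. It read 4.92, 4.67 and 4.61 at the end of the night and 11.11 and 10.88 at 48 h, a rise of 6.26 ± 0.45 (adjusted p = 4.54e-06). Its neighbour in the gene order of the TAIR10.1 annotation, AT1G19540, was also among the 15 largest rises, from 7.15, 7.02 and 7.04 to 11.97 and 11.98.

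HIS1-3, a linker histone H1 variant known for induction by drought, rose from 5.66, 5.84 and 5.87 to 11.36 and 11.26. The replicates lay close together. The rise was 5.52 ± 0.11, the smallest error of these 15, but that error pools the spread at all replicated time points. UPB1, a basic helix-loop-helix transcription factor, started at 4.09, 4.17 and 3.85 and reached 9.45 and 9.19, a rise of 5.28 ± 0.29. IVD and AT4G33150, enzymes of amino acid breakdown, belong to these 15 and are described with their pathways. The 8 others, among them AT5G39520 (5.79 ± 0.24), AT1G05340 (5.51 ± 0.24), AT1G72060 (5.49 ± 0.16) and AT3G05640 (5.32 ± 0.13), have a locus number only. Over all 15 the rise ran from 29.9-fold to 76.9-fold. For 5 of them, AT1G19530, UPB1 and AT3G05640 included, the mean at the end of the night lay under 5.68 log2, the level below which the dimmest 33.3% of probe sets lie and where folds of array signals are generally compressed.

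**Figure D2:**
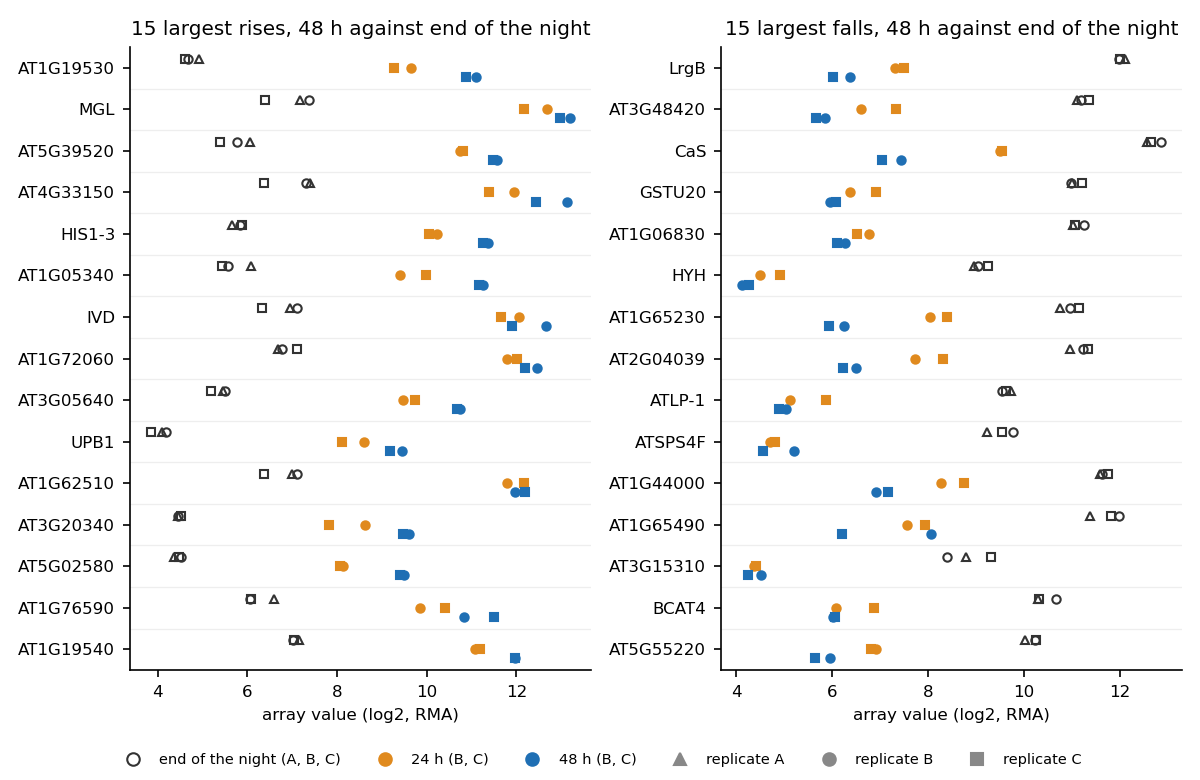
Array values (log2, RMA) of the 15 genes with the largest called rises (left) and falls (right), ordered by size, with open symbols for the end of the night, orange for 24 h and blue for 48 h of extended night, and the shape giving the replicate. End of the night and 48 h arrays do not overlap for any of these 30 genes, as the rule of choice required, and the 24 h arrays lie nearer to those of 48 h.

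The 15 largest falls were headed by genes for chloroplast proteins. LrgB, the plastid transporter that exports glycolate and takes up glycerate in photorespiration, dropped from 12.11, 11.99 and 12.01 to 6.38 and 6.02. That is a difference of -5.84 ± 0.14 log2, or 57.2-fold (adjusted p = 2.68e-08, limma). The groups did not overlap, as the rule of choice required. CaS, a calcium-sensing protein of the thylakoid membrane, went from 12.56, 12.86 and 12.64 to 7.44 and 7.03, a difference of -5.45 ± 0.18. AT3G48420, a locus without a symbol here, changed by the same amount, -5.45 ± 0.20.

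Other large falls came from several processes. GSTU20, a glutathione transferase of the tau class, dropped from 11.01, 10.98 and 11.21 to 5.95 and 6.08, and HYH, a bZIP factor of light signalling related to HY5, from 8.96, 9.04 and 9.24 to 4.12 and 4.27. Those were differences of -5.05 ± 0.23 and -4.89 ± 0.26. ATSPS4F, a sucrose phosphate synthase, changed by -4.63 ± 0.23, ATLP-1, a thaumatin-like protein, by -4.67 ± 0.24, and BCAT4, an aminotransferase of methionine-derived glucosinolate synthesis, by -4.39 ± 0.31. AT3G15310, annotated as a pseudogene, changed by -4.45 ± 0.22. For 4 of the 15 falls the mean at 48 h lay under the same level of 5.68 log2.

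Genes that mark sugar starvation were high. Of the 34 genes on that list 6 were measured, and 4 rose and 0 fell, with a median of 1.12 log2 against 0.03 for all genes. ATL8, a RING-type ubiquitin ligase, rose from 7.51, 7.06 and 7.50 to 11.37 and 12.06, which is 4.36 ± 0.23. AKINBETA1, a regulatory beta subunit of SnRK1, went from 10.23, 10.07 and 10.26 to 12.33 and 12.78, a rise of 2.36 ± 0.20. Neither gene's groups overlapped. BZIP53, a transcription factor of low-energy responses, rose by 1.17 ± 0.14, and EXO, an extracellular protein, by 1.08 ± 0.28, although without array 48 h C the call for EXO was lost. SWEET4, a sugar transporter, differed by 0.12 ± 0.18 (adjusted p = 0.659).

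The genes of amino acid breakdown rose together. All 6 measured genes of the list for amino acids other than the branched-chain ones and for the electron transfer flavoprotein rose, with a median of 2.47, and 4 of 5 branched-chain genes rose, with a median of 3.33. IVD, isovaleryl-CoA dehydrogenase in leucine breakdown, read 6.94, 7.10 and 6.32 at the end of the night and 12.67 and 11.90 at 48 h, a rise of 5.50 ± 0.28 (adjusted p = 5.57e-07, limma). The next enzyme of leucine breakdown, methylcrotonyl-CoA carboxylase, has subunits MCCA and MCCB. MCCA rose by 4.49 ± 0.18 from 8.36, 8.61 and 8.28 to 12.98 and 12.83, and MCCB by 3.26 ± 0.17. ALDH6B2, methylmalonate-semialdehyde dehydrogenase of valine breakdown, rose by 3.33 ± 0.14. The groups were apart for all 4 of these genes. The exception on the branched-chain list, AT2G26800, differed by 0.17 ± 0.14 (adjusted p = 0.382).

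Lysine breakdown starts with AT4G33150, lysine-ketoglutarate reductase/saccharopine dehydrogenase, which rose from 7.4, 7.32 and 6.38 to 13.12 and 12.44, by 5.75 ± 0.34. Electrons from some steps of amino acid breakdown, that of IVD among them, reach the respiratory chain through the electron transfer flavoprotein and its oxidoreductase. ETFQO, the oxidoreductase, rose by 3.03 ± 0.33, and the flavoprotein subunits ETFBETA and ETFALPHA by 1.91 ± 0.12 and 1.18 ± 0.22. D2HGDH, a dehydrogenase for 2-hydroxyglutarate on the same route, rose by 1.57 ± 0.16. None of the 10 calls on both lists was lost when either 48 h array was left out.

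Of 9 measured genes of nitrogen recycling 2 rose, 3 fell and 4 were not called, with a median of -0.04, beside 19.2% of all genes higher and 18.1% lower. PPDK, pyruvate orthophosphate dikinase, read 8.60, 9.33 and 8.86 and then 12.48 and 12.27, a rise of 3.44 ± 0.21, and DELTA-OAT, ornithine aminotransferase of arginine and ornithine breakdown, rose by 2.73 ± 0.17. Of the genes of ureide breakdown, ALN and AAH fell and UGLYAH was not called, at -0.03 ± 0.11. ALN, allantoinase, read 8.34, 8.56 and 8.50 and then 6.25 and 5.85, a difference of -2.42 ± 0.14, and AAH, allantoate amidohydrolase, changed by -1.95 ± 0.11. The groups were apart for PPDK, DELTA-OAT, ALN and AAH.

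Fewer genes of lipid and starch use were named. SDP1, a lipase for stored triacylglycerol, rose by 1.81 ± 0.22 and AIM1, an enzyme of peroxisomal fatty acid oxidation, by 0.96 ± 0.12. ICL, isocitrate lyase of the glyoxylate cycle, differed by -0.04 ± 0.17 (adjusted p = 0.887, limma). So 2 of 4 measured genes of lipid breakdown rose. Of 3 measured genes for starch degradation 2 rose: PWD, phosphoglucan water dikinase, which primes starch granules for attack, by 1.64 ± 0.21, and AMY1, an alpha-amylase, by 0.88 ± 0.20. DPE1 differed by 0.32 ± 0.29 (adjusted p = 0.437).

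Genes of starch and sucrose synthesis were lower, 4 of 5 measured, with a median of -1.31. Beside ATSPS4F, APL3, a large subunit of ADP-glucose pyrophosphorylase, read 6.12, 5.97 and 5.61 and then 4.67 and 4.42, a difference of -1.36 ± 0.17. SBE2.2, a starch branching enzyme, changed by -1.31 ± 0.23. SWEET11, which releases sucrose for phloem loading, changed by -0.82 ± 0.17. The SWEET family of sugar transporters, 15 genes measured, had 4 falls and 0 rises, beside 18.1% of all genes lower and 19.2% higher. The family median was -0.01. SWEET17, a vacuolar fructose transporter, fell most, from 9.22, 8.85 and 9.52 to 6.48 and 7.19 (-2.37 ± 0.30). The call for SWEET2 was lost without array 48 h B, and that for SWEET1 without array 48 h C.

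Every measured autophagy gene rose, 10 of 10, with a median of 1.17 log2. ATG8 proteins coat the membrane that encloses cell contents for delivery to the vacuole, and 9 of the 10 encode members of that family. ATG8B read 7.25, 7.00 and 7.16 at the end of the night and 11.25 and 11.06 at 48 h, a rise of 4.02 ± 0.15 (adjusted p = 1.07e-07, limma). ATG8H went from 6.18, 6.46 and 6.28 to 8.88 and 8.54, a rise of 2.4 ± 0.21. APG8A rose by 2.27 ± 0.15, and the others lay between 0.87 ± 0.18 for ATG8G and 1.41 ± 0.18 for APG8H. The end of the night and 48 h arrays did not overlap for the genes given by array. All 10 calls stayed without array 48 h B and without array 48 h C.

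Other routes of protein turnover changed in part, and their counts stand beside 19.2% of all genes higher and 18.1% lower. GAMMA-VPE, the vacuolar processing enzyme that activates vacuolar proteases, rose from 10.84, 10.77 and 10.62 to 12.63 and 12.14, by 1.64 ± 0.16. Serine carboxypeptidase-like genes, a family of vacuolar and secreted enzymes, had 10 of 29 lower, 2 higher and 17 not called, with a median of -0.11, and the lowest value was that of scpl35 at -2.84. The number higher was 0 without array 48 h B and 4 without array 48 h C. Of 13 ubiquitin-conjugating enzymes 5 rose, UBC32, which acts in degradation at the endoplasmic reticulum, by 1.84, and 1 fell, UBC20, by -1.86. Among 20 genes of the ESCRT and exocyst complexes, which sort and deliver membrane vesicles, 9 rose and 2 fell. ELC, a subunit that binds ubiquitinated cargo, read 8.15, 8.11 and 8.01 and then 10.53 and 10.37, a rise of 2.36 ± 0.13, whereas VPS2.2 changed by -2.37 ± 0.19.

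Regulators of leaf senescence were higher, 5 of 6 measured, with a median of 1.77. WRKY22 rose from 5.93, 6.02 and 6.34 to 9.01 and 9.04, by 2.93 ± 0.15, and WRKY53, a regulator that acts early in senescence, from 5.88, 5.82 and 5.79 to 8.73 and 7.60, by 2.33 ± 0.28. For both genes the arrays of the time points were fully apart. EIN3, the main transcription factor of ethylene signalling, rose by 2.02 ± 0.14, WRKY6 by 1.52 ± 0.28 and SAG101 by 1.49 ± 0.20. SAG29 was not called, at 0.07 ± 0.17 (adjusted p = 0.790, limma). NOL, the measured gene of chlorophyll breakdown, differed by 0.14 ± 0.14 (adjusted p = 0.479).

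**Figure D3:**
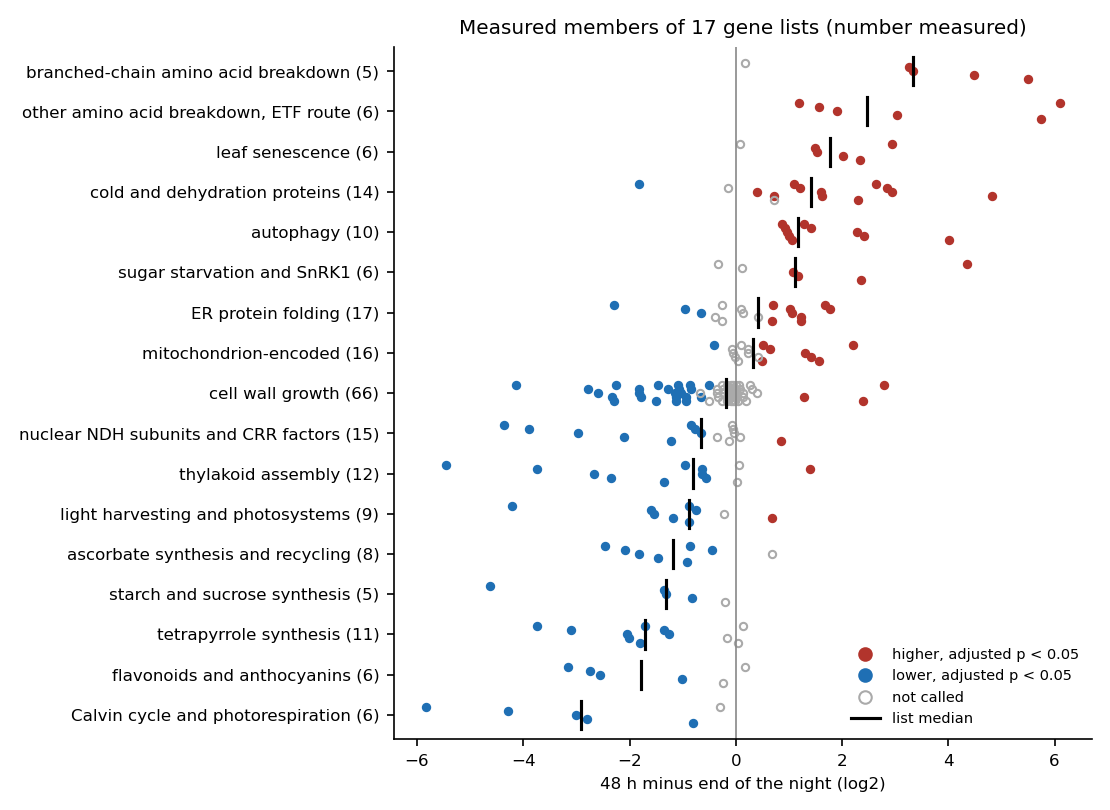
Difference between 48 h and the end of the night (log2, horizontal axis) for each measured gene of 17 lists, with the number measured in parentheses, red for called higher, blue for called lower, open grey for not called and a bar at the list median. Medians run from 3.33 for branched-chain amino acid breakdown to -2.90 for the Calvin cycle and photorespiration.

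Of the lists with more than 1 measured gene, the one for carbon fixation had the lowest median. Of its members, 5 of 6 measured for the Calvin cycle and photorespiration were lower and 0 higher, with a median of -2.90. SBPASE, sedoheptulose bisphosphatase of the Calvin cycle, read 12.66, 12.74 and 12.85 and then 8.47 and 8.45, a difference of -4.29 ± 0.13 (adjusted p = 5.08e-08, limma). PRK, phosphoribulokinase, went from 13.47, 13.40 and 13.31 to 10.27 and 10.90, a difference of -2.80 ± 0.17. Both genes were lower on each 48 h array than on any end of the night array. RCA, Rubisco activase, fell by 3.0 ± 0.48, but its 48 h arrays differed, at 9.85 on B and 11.86 on C. TPI, triose phosphate isomerase, changed by -0.81 ± 0.16. Its measured locus, AT3G55440, encodes the cytosolic form of the enzyme and not the plastid form, although it is counted among the 6. HPR, hydroxypyruvate reductase, was not called, at -0.30 ± 0.13 (adjusted p = 0.0923, limma).

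Nuclear genes of the light-harvesting complexes and photosystems were mostly lower. Of 9 measured, 7 were lower and 1 higher, with a median of -0.88. LHCB4.3, an antenna protein of photosystem II, stood apart with a drop from 11.11, 11.25 and 11.50 to 7.19 and 6.97, a difference of -4.21 ± 0.19. Its family member LHCB4.2 went from 13.48, 13.60 and 13.49 to 12.39 and 12.27, a difference of -1.19 ± 0.12, and LHCB4.1 was not called, at -0.22 ± 0.09 (adjusted p = 0.0851). The members of this antenna family thus ranged from a large fall to none called. ATPC1, the gamma subunit of the chloroplast ATP synthase, changed by -1.59 ± 0.10, PSAE-1 of photosystem I by -1.53 ± 0.14 and PSBW of photosystem II by -0.87 ± 0.14. PGRL1B, of cyclic electron flow, rose by 0.67 ± 0.14.

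Tetrapyrrole synthesis, which makes chlorophyll and heme, had 8 of 11 measured genes lower, 0 higher and a median of -1.71. LIL3:1, a protein that holds enzymes of chlorophyll synthesis in the membrane, read 11.67, 11.46 and 11.52 and then 7.65 and 7.98, a difference of -3.74 ± 0.17. CHLI2, a subunit of magnesium chelatase, went from 9.14, 9.12 and 9.06 to 6.00 and 6.00, a difference of -3.10 ± 0.10. No array of one group reached into the other. Falls between -1.27 and -2.04 were found for the uroporphyrinogen decarboxylases HEME1 and HEME2, for GSA1 and HEMB1 at the start of the pathway, for the methyltransferase CHLM and for the protochlorophyllide reductase PORB. HEMA2 and HEMA3, genes for glutamyl-tRNA reductase, were not called, at -0.17 ± 0.13 and 0.14 ± 0.15.

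Factors that build and regulate the thylakoid complexes followed. On a list of 12, 9 were lower and 1 higher, with a median of -0.80. Beside CaS, HCF101, which supplies iron-sulfur clusters to photosystem I, fell from 10.36, 10.62 and 10.32 to 6.88 and 6.51, a change of -3.74 ± 0.14. TROL, an anchor of ferredoxin-NADP reductase, changed by -2.67 ± 0.13 and NTRC, a plastid thioredoxin reductase, by -2.36 ± 0.21. The photosystem II assembly factors LPA1 (-0.96 ± 0.19) and LPA2 (-0.63 ± 0.12) changed less, and YLMG1-2 rose by 1.39 ± 0.14. Of 15 nuclear genes for the chloroplast NDH complex, which returns electrons from ferredoxin to plastoquinone, and for the factors that process its transcripts, 8 were lower and 1 higher. NdhN read 10.41, 10.70 and 10.83 and then 6.40 and 6.17, a difference of -4.36 ± 0.17, and NdhL changed by -3.90 ± 0.15. Another subunit gene, NdhS, went the other way, from 11.15, 11.19 and 11.15 to 12.11 and 11.92, a rise of 0.85 ± 0.10.

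Genes encoded in the chloroplast genome showed weaker and less even differences. Of 69 measured, 25 were lower and 0 higher, with a median of -0.82. The result depended on which 48 h array was read: the median against the end of the night was -1.0 on array B and -0.42 on array C, and 46 of the 69 were lower on B. Without array B, 13 were called lower, and without array C 33 were. Array 48 h B is the one with the low 25S ribosomal RNA signal and the wider difference of the second actin control, and their part in this result was not tested.

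Among plastid genes, psbC, for a core antenna of photosystem II, read 12.63, 12.49 and 12.46 at the end of the night and 9.08 on B and 11.05 on C at 48 h. Its change of -2.46 ± 0.43 (adjusted p = 0.00125, limma) stayed called without either array. For psbD, which encodes a reaction centre protein and shares its transcripts with psbC, the end of the night arrays themselves ran from 12.20 to 10.15, and the 48 h arrays read 6.52 and 9.24. Its change of -3.33 ± 0.84 was lost without array B. The photosystem I genes psaC (-2.87 ± 0.95) and psaA (-2.26 ± 0.81) were called, but end of the night array C read 7.52 for psaC, against 11.36 and 10.49 on A and B, and both calls were lost without array B. The call for psaC was also lost without array C, and that for psaA with the replicate letter as a block. The more even changes were smaller: psbZ went from 12.57, 12.56 and 12.59 to 11.57 and 11.44 (-1.07 ± 0.13), and petB, of the cytochrome b6f complex, changed by -0.62 ± 0.11.

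The genes of the plastid ATP synthase were not called, 0 of 6, with medians of -1.21 on array B and -0.01 on array C. Without array C 3 of the 6 were called lower: atpH, atpF and atpI, which differed by -1.21 ± 0.48, -1.07 ± 0.39 and -0.98 ± 0.82 over both arrays. Among the others atpB read 14.13, 14.05 and 14.12 and then 14.02 and 13.99, a difference of -0.10 ± 0.10 (adjusted p = 0.487, limma), and atpE differed by 0.11 ± 0.10 (adjusted p = 0.456). Of the 15 plastid ribosomal protein genes 7 were lower, and without array B 1 was. For rbcL, the large subunit of Rubisco, the change of -2.02 ± 0.49 was also lost without array B, which read 7.52 against 9.07 on C.

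Genes of the mitochondrial genome went the other way on balance, with 7 of 16 higher, 1 lower and a median of 0.33. The subunit gene nad5 of respiratory complex I read 6.34, 6.19 and 5.28 and then 8.42 and 7.88, a rise of 2.21 ± 0.36, and nad9 rose by 1.56 ± 0.32. Both rises were present on each 48 h array. Without array B 4 of the 16 were called higher, and without array C 6. Of 13 nuclear genes for mitochondrial respiration 3 were higher and 3 lower, near the shares of all genes, and without array B 0 were higher. CYTC-2, cytochrome c, changed by -1.86 ± 0.28, and NDB2, an NADH dehydrogenase of the alternative pathway, by 0.71 ± 0.19, a call lost without array B.

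**Figure D4:**
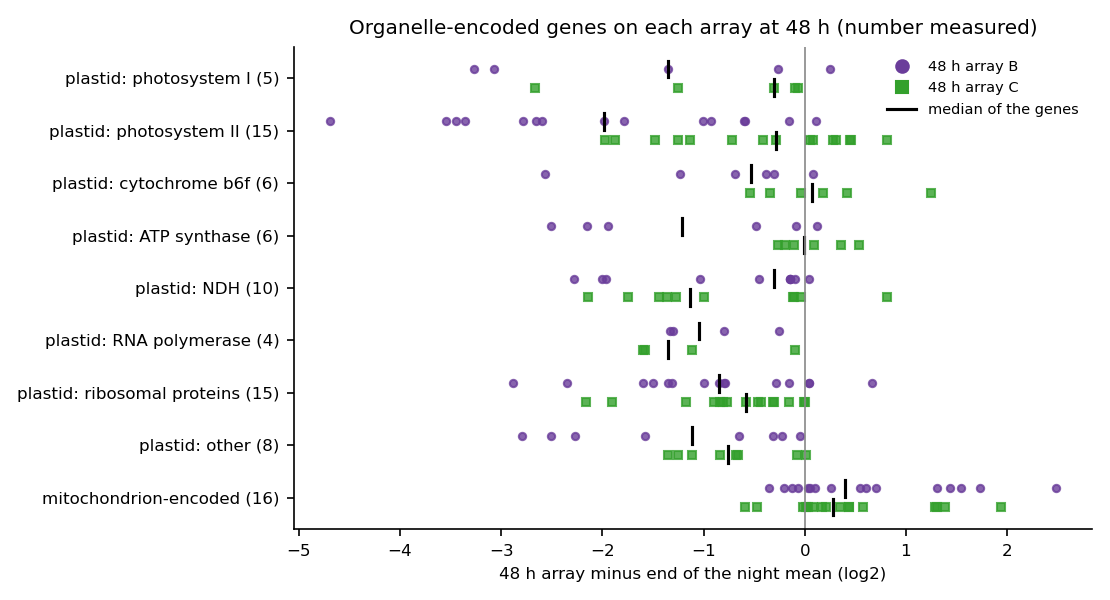
Difference of 48 h array B (purple circles) and array C (green squares) from the mean of the end of the night arrays (log2) for each organelle-encoded gene, grouped by complex, with a bar at the median and the number measured in parentheses. Photosystem II and ATP synthase genes lie lower on array B (medians -1.99 and -1.21) than on array C (-0.29 and -0.01), and NDH genes lie lower on C.

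Genes that make or recycle ascorbate and glutathione were lower. Of 8 measured genes for ascorbate synthesis and recycling 7 fell and 0 rose, with a median of -1.19. VTC4, a phosphatase of ascorbate synthesis, read 9.23, 9.61 and 9.76 and then 6.97 and 7.16, a difference of -2.47 ± 0.22. TAPX, the thylakoid ascorbate peroxidase, went from 10.59, 10.66 and 10.82 to 8.69 and 8.50 (-2.09 ± 0.13), and the plastid glutathione reductase GR changed by -1.82 ± 0.13. Each pair of groups was separate. Of 13 tau and phi glutathione transferases 5 fell and 1 rose, against 18.1% of all genes lower and 19.2% higher. Beside GSTU20, GSTU18 changed by -2.99 ± 0.17.

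Both measured pathways of secondary metabolism were lower. Flavonoid and anthocyanin genes fell, 4 of 6 measured, with a median of -1.79. DFR, dihydroflavonol reductase of anthocyanin synthesis, read 8.81, 8.20 and 8.41 and then 5.58 and 5.03 (-3.17 ± 0.34), and the flavonol glycosyltransferases UGT78D2 and UGT78D1 changed by -2.75 ± 0.20 and -2.56 ± 0.20. Of 4 measured glucosinolate genes 3 fell: BCAT4, AOP1 (-1.36 ± 0.18) and UGT74B1 (-1.23 ± 0.13). The UDP-glycosyltransferase family as a whole, which attaches sugars to small molecules, had 16 of 49 members higher and 6 lower. UGT73B1 led the rises, from 6.29, 5.81 and 6.07 to 9.60 and 9.55 (3.52 ± 0.17). Beta-glucosidases, which remove such sugars, had 5 of 22 higher and 6 lower, and of 19 CYP71B cytochromes P450 4 were higher and 4 lower, shares near the 19.2% and 18.1% of all genes. BGLU45, which acts on lignin precursors, rose from 4.45, 4.31 and 4.3 to 7.35 and 7.58 (3.12 ± 0.30), and BGLU40 changed by -2.22 ± 0.14. CYP71B23 rose by 3.46 ± 0.41.

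Cell wall genes fell far more often than they rose, with 24 of 66 measured lower and 3 higher, although the median was -0.19. TBL45, of a family that acetylates wall polysaccharides, read 10.57, 10.55 and 10.89 and then 6.18 and 6.88, a difference of -4.14 ± 0.21. XTH32, a xyloglucan-remodelling enzyme, changed by -2.79 ± 0.28 and EXPB3, a beta-expansin that loosens walls, by -2.60 ± 0.22. Relatives rose: EXLA1, an expansin-like gene, from 6.79, 6.63 and 6.52 to 9.52 and 9.35 (2.79 ± 0.23), and EXPA16 by 2.38 ± 0.29. Endoglucanases of family GH9 had 5 of 15 lower and 0 higher, with GH9B13 at -2.85 ± 0.27. Of 11 RALF signalling peptides 3 fell, RALFL24 from 8.59, 8.54 and 8.92 to 5.71 and 5.66 (-3.0 ± 0.18), and 1 rose. Among all genes 18.1% were lower and 19.2% higher.

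Few cell cycle and chromatin genes had a name. Of 5 measured cell cycle genes 3 fell and 1 rose. PRL, a subunit of the MCM helicase that opens DNA for replication, read 7.77, 7.92 and 7.23 and then 5.26 and 5.27 (-2.37 ± 0.20). The mitotic kinases AUR2 and AUR1 changed by -1.89 ± 0.15 and -1.59 ± 0.31, and SIM, an inhibitor of cell division, rose by 0.77 ± 0.19. Of 6 measured histones 4 fell, 1 rose and 1 was not called. The falls were those of the H2B genes HTB2 (-3.0 ± 0.17), HTB1 (-1.56 ± 0.13) and HTB11 (-0.49 ± 0.12) and of HTR12, the centromeric H3 (-0.66 ± 0.13), and the rise was that of HIS1-3. Of 7 tubulins 2 rose and 2 fell, beside 19.2% of all genes higher and 18.1% lower. Without array 48 h B 1 fall was left. TUB6 and TUA1 rose by 1.26 ± 0.24 and 1.1 ± 0.19, and TUA6 changed by -1.25 ± 0.20.

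A few hormone and light signalling genes changed strongly, but most genes measured on the 2 hormone lists given here were not called. Of 16 auxin genes 5 rose, 0 fell and 11 were not called, with a median of 0.055. Of 9 genes for gibberellin, brassinosteroid and cytokinin 3 rose, 1 fell and 5 were not called, with a median of -0.064. The gibberellin receptors were all higher, GID1C by 1.82 ± 0.19, GID1A by 1.55 ± 0.21 and GID1B by 1.48 ± 0.14. GID1C, for example, went from 6.63, 6.35 and 6.01 to 8.18 and 8.13. WES1, an enzyme that conjugates auxin to amino acids, rose from 7.29, 7.10 and 6.51 to 11.38 and 11.34 (4.39 ± 0.25). ARR15, a response regulator of cytokinin signalling, changed by -1.26 ± 0.18. FHL, which helps bring phytochrome A into the nucleus, rose by 3.53 ± 0.18. GI, a clock component that is normally highest late in the day, rose from 5.72, 5.74 and 5.19 to 8.92 and 8.98 (3.4 ± 0.20). At 24 h it was already 2.09 higher. It was the 1 measured gene of 25 on the clock list. Both groups were taken at one clock time, and the phase of the plants' clock in darkness was not tested.

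Genes named for cold and drought were higher, 11 of 14, with 1 lower and a median of 1.41. This list was drawn up after the annotation was seen. An earlier list for abscisic acid and dehydration, which shares LTI30, COR47 and COR15A with it, had 6 of 9 higher and 2 lower. Its median was 1.61, and AT2G44060 on it changed by -1.16 ± 0.14. COR27, a cold- and light-regulated gene, read 6.15, 5.55 and 5.33 and then 10.67 and 10.34 (4.82 ± 0.23). The dehydrins LTI30, from 6.80, 5.91 and 6.20 to 8.80 and 9.70, and COR47, from 9.32, 9.30 and 9.30 to 11.81 and 12.49, rose by 2.95 ± 0.44 and 2.84 ± 0.19. None of these overlapped. COR15A was called at 2.3 ± 0.80 (adjusted p = 0.0437, limma), but it was not with the replicate letter as a block, nor when any 1 of the 5 arrays was left out. In the other direction, HVA22C fell by 1.82 ± 0.21. Without array 48 h B 8 of the 14 were higher, and without array C 10 were.

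The defence list, 12 measured, had 5 higher and 1 lower with a median of 0.08, beside 19.2% of all genes higher and 18.1% lower. PDF1.4, a defensin-type peptide, read 6.44, 6.06 and 5.85 and then 9.87 and 9.99 (3.81 ± 0.42), and the kinase BIK1 rose by 0.93 ± 0.15. The other rises on this list were the WRKY genes given above. Genes for protein quality control in the endoplasmic reticulum had 8 of 17 higher and 3 lower. The stress regulators BZIP28 and BZIP60 rose by 1.24 ± 0.12 and 1.03 ± 0.15, and DER2.1, of the export route for misfolded proteins, from 9.34, 9.28 and 9.62 to 11.15 and 11.02 (1.67 ± 0.12). The chaperone calreticulin CRT1b went down instead, from 9.84, 9.81 and 9.49 to 7.57 and 7.26 (-2.3 ± 0.18).

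Set against 24 h of extended night, at the same clock time, 48 h differed for 1144 probe sets, 5.03%: 565 were higher, 2.48%, and 579 lower, 2.55%. Of the 4664 probe sets called higher at 48 h than at the end of the night, 508 were also higher than at 24 h and 13 were lower; of the 4623 called lower, 526 were also lower than at 24 h and 11 higher. With the replicate letter as a block, 2972 probe sets were called, 1474 higher and 1498 lower. Leaving out one array gave 364 without 24 h B, 346 without 24 h C, 881 without 48 h B and 1739 without 48 h C. The arrays of these time points alone gave 2. This count is therefore loosely determined. The differences at 24 h and at 48 h are measured from the same end of the night arrays, so they are not independent. At 24 h 15.5% of probe sets were called higher and 17.2% lower, 32.6% in all. All 15 of the largest rises and all 15 of the largest falls were among them, and 5 and 7 of them went further by 48 h.

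The 10 genes that changed most after 24 h included 5 that were not called at 24 h against the end of the night. CHI, a chitinase, read 7.28, 6.95 and 6.53 as the night ended, then 7.32 and 7.31 at 24 h, and finally 10.14 and 9.99. It was not called at 24 h and then rose by 2.75 ± 0.23 (adjusted p = 0.000599, limma). AT4G16260, a locus without a symbol here, read 5.60, 5.38 and 5.60, then 5.74 and 6.04, and then 8.41 and 9.80, a late rise of 3.21 ± 0.54. AT1G09500 and AT1G19020 rose late by 2.68 ± 0.39 and 2.65 ± 0.41. EXPA8, an alpha-expansin, held at 9.02, 9.29 and 9.53 and then 9.09 and 9.47 before falling to 6.28 and 7.68, a change of -2.3 ± 0.43. AT1G68620, in contrast, rose in both steps, by 1.47 and then by 2.86 ± 0.38.

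Among the falls, AT1G29660, AT4G24780 and AT5G45670 moved down in both steps, with late changes of -2.46 ± 0.34, -2.43 ± 0.22 and -2.38 ± 0.29. CaS did the same, from 9.50 and 9.54 at 24 h to 7.44 and 7.03, a late change of -2.28 ± 0.20. Photosynthesis lists held several genes that went lower after the first day: 5 of 11 for tetrapyrrole synthesis, 3 of 6 for the Calvin cycle and photorespiration, and 3 of 9 for light harvesting. Over all genes 1.95% were lower at 48 h than at 24 h, and 1.93% higher. PRK, for example, was at 12.19 and 12.18 at 24 h before it reached 10.27 and 10.90. For amino acid breakdown, 0 of 5 branched-chain genes and 2 of 6 others were called higher at 48 h than at 24 h, with median differences of 0.40 and 0.63 between these time points. IVD, which read 12.06 and 11.65 at 24 h, differed by 0.44 ± 0.30 (adjusted p = 0.579). Of the autophagy genes, ATG8B and ATG8H rose further, by 1.27 and 1.19.

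**Figure D5:**
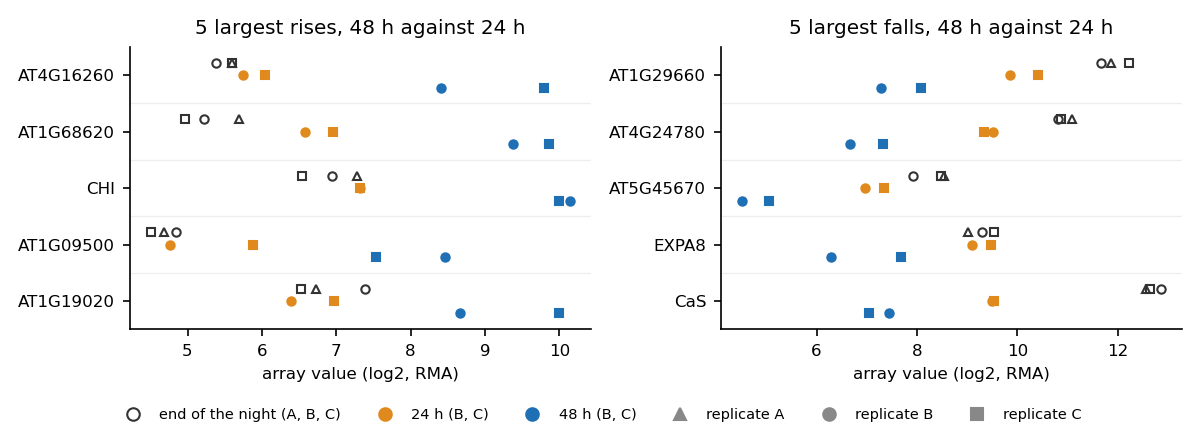
Array values (log2, RMA) of the 5 genes with the largest called rises (left) and falls (right) from 24 h to 48 h of extended night, with open symbols for the end of the night, orange for 24 h, blue for 48 h and the shape giving the replicate. For CHI and EXPA8 the 24 h arrays sit beside those of the end of the night, and for CaS they sit between the other groups.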

How the data were processed

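The analysis started from the series' value table for ATH1 arrays. Its log2 values were made by the authors with RMA, per the submitters' processing notes; the program and its release: not given in the sources used here. Genes were named for the 13513 of 22746 probe sets that GEO's platform annotation ties to 1 gene, with names updated through the TAIR10.1 table for 13436. The other 503 (several genes) and 8730 (no gene given) were tested but not named. limma 3.58.1 in R 4.3.3 (lmFit, eBayes) fitted 1 mean per time point (8) over all 14 arrays, unblocked, and Benjamini-Hochberg adjustment ran over all probe sets of a comparison, with calls at 0.05. The pipeline was tested on simulated data. Precision is limited by the number of arrays, and a fit with 1 array at 48 h assumes that it varies like the other groups. Replicates may be technical, since the labels do not say that they come from separate plantings.

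Same-lettered arrays deviated together from their time points' means (16 pairs, r from 0.17 to 0.58, against -0.58 to 0.37 for 32 pairs of different letters). At a time point with 2 arrays the deviations mirror each other by construction, so these pairs are not independent and the contrast is partly built in. The letters may pair the samples. The main fit leaves such a pairing out, and a fit with the letter as a block was the alternative. Other alternatives were an adjusted p of 0.01, a 2-fold limit, median centring, a second quantile normalization, removal of probe sets in the dimmest 33.3%, a trended and robust eBayes, the compared arrays alone, and leaving out each array. Named genes were the 15 largest called rises and falls with separate arrays, up to 6 members of each gene list (called ones first, largest first), and the 5 largest each way between 48 h and 24 h; a list takes the brightest probe set of a gene. Other list members named in the text, most of them not called, were chosen after their values were seen. The members and lists were chosen with earlier results of these data known, and the family lists were drawn up after the annotation was seen.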

Additional observations from a re-analysis of the deposited data

Results flagged for a closer look

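Between 24 h and 48 h of extended night, 565 probe sets were higher and 579 lower in the test of that difference itself. The genes with the largest such differences were AT4G16260 (3.21 log2), AT1G68620 (2.86), CHI (2.75), AT1G09500 (2.68) and AT1G19020 (2.65) upward, and AT1G29660 (-2.46), AT4G24780 (-2.43), AT5G45670 (-2.38), EXPA8 (-2.30) and CaS (-2.28) downward. All 10 kept their direction in the fits that left out an array, but 7 were called without 24 h array B, 8 without 24 h array C and 0 of them on the arrays of these time points alone.

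Some of the control probe sets, which entered no comparison, set array 48 h B apart from the other 13 arrays. Its difference between 3′ and 5′ probe sets was 2.02 log2 for the second actin control, against 0.90 to 1.71 elsewhere, and 1.08 for the second ubiquitin control, against 0.62 to 0.99 elsewhere. The remaining controls of this kind lay within the range of the other 13 arrays. They were the first actin (2.435), first ubiquitin (1.92), first GAPDH (0.851) and second GAPDH (-0.254) controls.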

How the results depend on the processing

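The counts of probe sets called higher and lower at 48 h than at the end of the night stayed within 1.5 times of 4664 and 4623 under every alternative tried except the 2-fold limit, which left 2283 and 2490. With each array left out in turn they ran from 4134 to 4371 and from 4131 to 4403. Median centring gave 5538 and 4119, a shift of 0.09 log2 over all probe sets, and the replicate block gave 5707 and 5522. The count between 48 h and 24 h, 1144, was 362 at an adjusted p of 0.01, 563 with the 2-fold limit, 2 on the arrays of these time points alone and 2972 with the replicate block; with 1 array left out it ran from 346 to 1739. The causes were not tested. Of 295 named genes that were called, 245 stayed called under every alternative at 0.05, and none of the named genes reversed its direction while called. The replicate block took 4 named genes below the threshold and brought 6 past it. Motif shares in promoters were not run.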
